A study of Mus musculus with 2 samples.

Results

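The miR-29 family is a group of microRNAs, short RNAs that pair through their seed (bases 2 to 8) with messenger RNAs and lower the output of those messengers. The 3 guide arms of the family are miR-29a-3p, miR-29b-3p and miR-29c-3p. They were chosen by the accessions that the miRBase registry gives to them (MIMAT0000535, MIMAT0000127 and MIMAT0000536). No cut on their values was used, but earlier results of these data were known when they were chosen. They are 3 of the 739 rows of the array, and each had a row of its own that no other accession shares. RNA was profiled on 1-colour miRNA arrays, with 1 array for CD4+ T cells of the intestinal lamina propria, the tissue that lies beneath the gut's lining, and 1 for CD4+ T cells of the spleen. Both samples came from female C57BL/6 mice of 10 weeks that were IL-10 +/-, heterozygous for the gene of interleukin 10, a cytokine that dampens inflammation. No IL-10 +/+ sample was analysed here, and the labels do not say how many mice each RNA sample was taken from. Collagenase is named for the lamina propria cells alone, so its effect and that of the tissue cannot be told apart. CD4+ cells of both tissues were taken with magnetic beads, and whether other cells came with them was not checked, since the marker rows could not be named.

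In helper T cells the family is known for holding back the Th1 programme, the interferon gamma response against intracellular microbes. Its described mouse targets there are Tbx21, which encodes the Th1 master regulator T-bet, Eomes, which encodes the related factor Eomesodermin, and Ifng, which encodes interferon gamma itself. In other tissues the family is known for targeting collagens, de novo DNA methyltransferases and the survival factor Mcl1. The arrays measured no messenger RNA, so none of these targets has a value here.

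The mature sequences are shown because the members are so alike that a probe for one may also bind another, which was not tested. All 3 matched an entry of RefSeq (GRCm38.p6), and they are written 5′ to 3′ with the seed in capitals.
miR-29a-3p: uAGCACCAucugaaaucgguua
miR-29b-3p: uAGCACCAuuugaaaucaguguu
miR-29c-3p: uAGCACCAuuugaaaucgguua

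The seed AGCACCA was the same in all 3 members, and its complement in a target is UGGUGCU. Among 1679 mature mouse miRNA names in the RefSeq table, these 3 were the only names with this seed. With positions counted from 1 at the 5′ end, miR-29a-3p and miR-29c-3p are both 22 bases long and differ by the single substitution C10U, so that 21 of 22 bases are identical. From miR-29a-3p to miR-29b-3p the substitutions are C10U, G18A, U21G and A22U, and miR-29b-3p has 23 bases. From miR-29b-3p to miR-29c-3p they are A18G, G21U and U22A. In human cell lines, the run of uracils in the middle of miR-29b and miR-29c, which C10U completes, has been tied to faster decay than that of miR-29a. The last 6 bases of miR-29b-3p, AGUGUU, have been described as a nuclear import signal in human cells, and neither of the other members ends in them.

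The 3 mature miRNAs come from 4 hairpin genes in 2 clusters. On the minus strand of chromosome 6, Mir29a yields miR-29a-3p at chr6:31062673-31062694 and Mir29b-1 yields miR-29b-3p at chr6:31063025-31063047, with 275 bases between the hairpins. On the plus strand of chromosome 1, Mir29b-2 yields miR-29b-3p at chr1:195037091-195037113 and Mir29c yields miR-29c-3p at chr1:195037600-195037621, with 426 bases between the hairpins. Both chromosome 1 hairpins lie within the long noncoding RNA gene A330023F24Rik, and no other RefSeq gene overlaps either chromosome 6 hairpin. Since miR-29b-3p has the same sequence from both clusters, its row cannot tell Mir29b-1 from Mir29b-2.

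All 3 family members had lower intensities in lamina propria CD4+ T cells than in splenic CD4+ T cells, by about the same factor. Intensities are the authors' deposited linear values in arbitrary units, and ratios are log2 of lamina propria over spleen with no further scaling. Each tissue had 1 array, so every value has n = 1 and no error, the differences have no replicate check, and no p-value was possible. In such a bulk sample, fewer cells that carry a miRNA and less of it in each cell cannot be told apart.

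miR-29a-3p, the member that lacks the full run of central uracils, had an intensity of 461.75 in lamina propria and 1304.88 in spleen. The lamina propria value was 2.83-fold lower, a log2 ratio of -1.50. miR-29a-3p lay far above the floor on both arrays, at 160 times the lowest listed value in lamina propria and 939 times the lowest in spleen.

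miR-29b-3p, the member made by both clusters, had an intensity of 66.42 in lamina propria and 184.80 in spleen. It was 2.78-fold lower in lamina propria, a log2 ratio of -1.48. Its values were 23.1 times the lowest listed value in lamina propria and 133 times that in spleen.

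miR-29c-3p, encoded only in the chromosome 1 cluster, was the dimmest row of the family, at 13.64 in lamina propria and 41.45 in spleen. It was 3.04-fold lower in lamina propria, a log2 ratio of -1.60. At 4.74 times the lowest listed value in lamina propria and 29.8 times that in spleen, it is the member whose ratio depends most on how background was handled. The order of brightness among the 3 rows was the same on both arrays, but probes can differ in labelling and binding, so it gives no order of abundance.

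**Figure D1:**
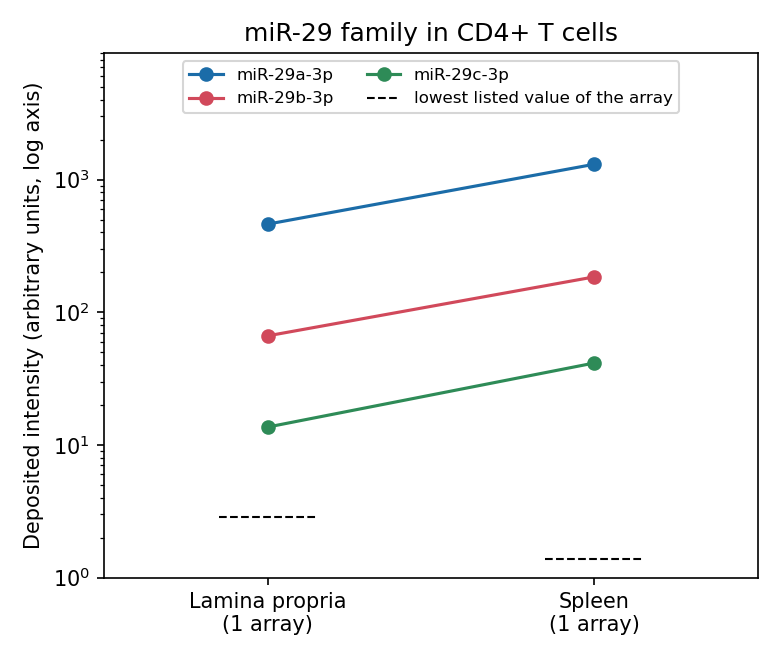
Deposited intensity (arbitrary units, log axis) of miR-29a-3p, miR-29b-3p and miR-29c-3p on the lamina propria array and the spleen array, 1 array each; lines join the same row and dashed marks show each array's lowest listed value (2.88 in lamina propria, 1.39 in spleen). The 3 lines run nearly parallel, with lamina propria 2.78-fold to 3.04-fold below spleen.

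On the deposited scale the members hardly differed among themselves in their tissue ratio. The highest and lowest log2 ratios of the family lay 0.13 apart, and the interquartile range of all 177 rows in the upper 50% by mean level was 2.18. The log2 ratio of miR-29b-3p minus that of miR-29a-3p was 0.02, and the 2 are neighbours on chromosome 6. miR-29c-3p minus miR-29b-3p was -0.13, and these 2 are neighbours on chromosome 1. miR-29c-3p minus miR-29a-3p, which share no cluster, was -0.10. Differences of this size cannot be read at n = 1. This closeness did not hold under scalings that change with level. The range of the 3 log2 ratios was 1.40 after quantile normalization and 0.59 with the trend with level taken out. In both of these settings miR-29b-3p was the highest. The range was 0.07 with 1 added to both values and 0.36 with 10 added, where miR-29c-3p was the highest at -1.12. The members have near-identical sequences, and how far each probe also binds the other members was not tested.

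Of the 353 rows with a value on both arrays, the upper 50% by mean log2 level held all 3 members. In lamina propria 378 rows had a value and in spleen 516. Rows with a value on only 1 of the arrays are left out of the shares, medians and places given here. By the rule of at least 2-fold, 3 of 3 members were lower in lamina propria and 0 were higher, against 41.2% of the 177 rows that were lower and 15.3% that were higher. The median log2 ratio of the members was -1.50, against -0.59 over the 177 rows and 0.0093 over all 353 rows. At 4-fold, 0 of 3 members were lower, against 14.7% of the 177 rows.

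Many other rows were as low as the family. Of the 177, 46 rows (26.0%) had a ratio below that of every member, 117 rows (66.1%) had one above every member, and 11 further rows lay between the highest and the lowest member. Counted from the lowest ratio, miR-29c-3p was at place 47, miR-29a-3p at place 58 and miR-29b-3p at place 60. After quantile normalization the places were 35 for miR-29c-3p, 22 for miR-29a-3p and 88 for miR-29b-3p. With the trend taken out they were 42, 39 and 72 in the same order. miR-29a-3p and miR-29c-3p thus lay on the low side of the 177 rows in these 3 settings, and miR-29b-3p lay at the middle after quantile normalization.

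**Figure D2:**
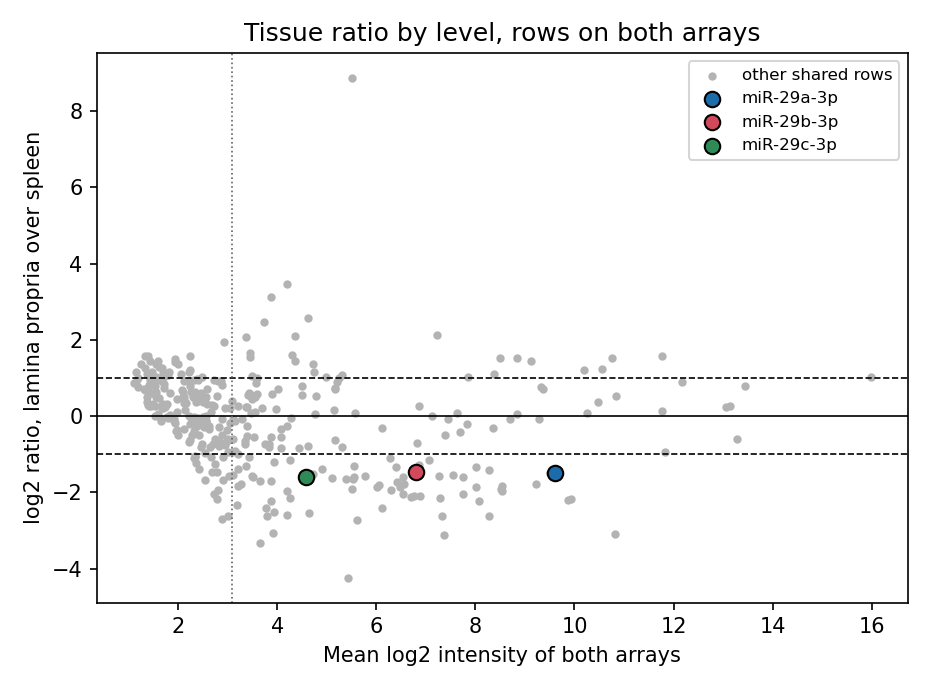
Log2 ratio of lamina propria over spleen against the mean log2 intensity of both arrays, for the 353 rows on both arrays (1 point a row); dashed lines mark 2-fold and the dotted line the lower end of the upper 50%. The 3 family members lie at one height, between -1.60 and -1.48, at 3 different levels within the upper 50%, with many other rows around and below them.

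The members' accession numbers are 535, 127 and 536, and in an earlier analysis of these data the rows numbered 904 or lower, which tend to mark miRNAs described early, were picked out because many of them were lower in lamina propria. Without the 3 members, 76 such rows lay in the upper 50%; 51 of them (67.1%) were past 2-fold on the low side, and their median log2 ratio was -1.54, with quartiles of -1.98 and -0.30. Among all 79 early rows, miR-29c-3p was at place 34 from the lowest, miR-29a-3p at place 42 and miR-29b-3p at place 44, near the middle. Since that group, the members included, was picked for its low values, these figures on the deposited scale only place the members within it and support nothing about them.

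The rows most like the family were sought by the distance of their log2 ratio from the members' median, over 2 arrays only, among rows of the upper 50%. The nearest 5 had log2 ratios between -1.56 and -1.50. The nearest, MIMAT0000533, had an intensity of 433 in lamina propria and 1220 in spleen. The next, MIMAT0000605, had 15.4 in lamina propria and 44.5 in spleen. These accessions could not be paired with miRNA names from the sources used here, and a shared ratio over 2 arrays says nothing more about them.

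The call of miR-29b-3p depended on how the arrays were made comparable, and those of miR-29a-3p and miR-29c-3p did not under any of the 10 other scalings and added constants tried. Intensities summed to 182481 in lamina propria and 136232 in spleen. A single factor between arrays moves all 3 ratios alike, and under each of the 6 such factors tried all 3 stayed at least 2-fold lower, as did between 33.9% and 62.1% of the 177 rows. Among these 6 factors, setting the arrays' medians over shared rows equal brought the members nearest to that threshold of -1. They were then at -1.07 for miR-29a-3p, -1.05 for miR-29b-3p and -1.17 for miR-29c-3p. With the trend with level taken out, miR-29a-3p was at -1.08 and miR-29c-3p at -1.05. In these settings the calls of miR-29a-3p and miR-29c-3p were kept by a narrow margin, which has no error at n = 1.

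Scalings that change with level treated the members unequally. A smooth curve through the ratios of all 353 rows stood at -0.42 at the level of miR-29a-3p, -0.99 at that of miR-29b-3p and -0.56 at that of miR-29c-3p. After removal of that curve the log2 ratios were -1.08 for miR-29a-3p, -0.49 for miR-29b-3p and -1.05 for miR-29c-3p, and 24.9% of the 177 rows were at least 2-fold lower. The same contrast showed in ranks of brightness over the 353 shared rows, where a rank only serves to compare a row with itself on the other array. miR-29a-3p was at place 27 in lamina propria and 14 in spleen, and miR-29c-3p at place 128 in lamina propria and 92 in spleen. miR-29b-3p was at place 58 in lamina propria and 57 in spleen, so its rank was almost the same although its intensity was 2.78-fold lower. Quantile normalization, which compares such ranks, gave -1.49 for miR-29a-3p, -0.10 for miR-29b-3p and -1.21 for miR-29c-3p. On that scale 28.2% of the 177 rows passed 2-fold on the low side.

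**Figure D3:**
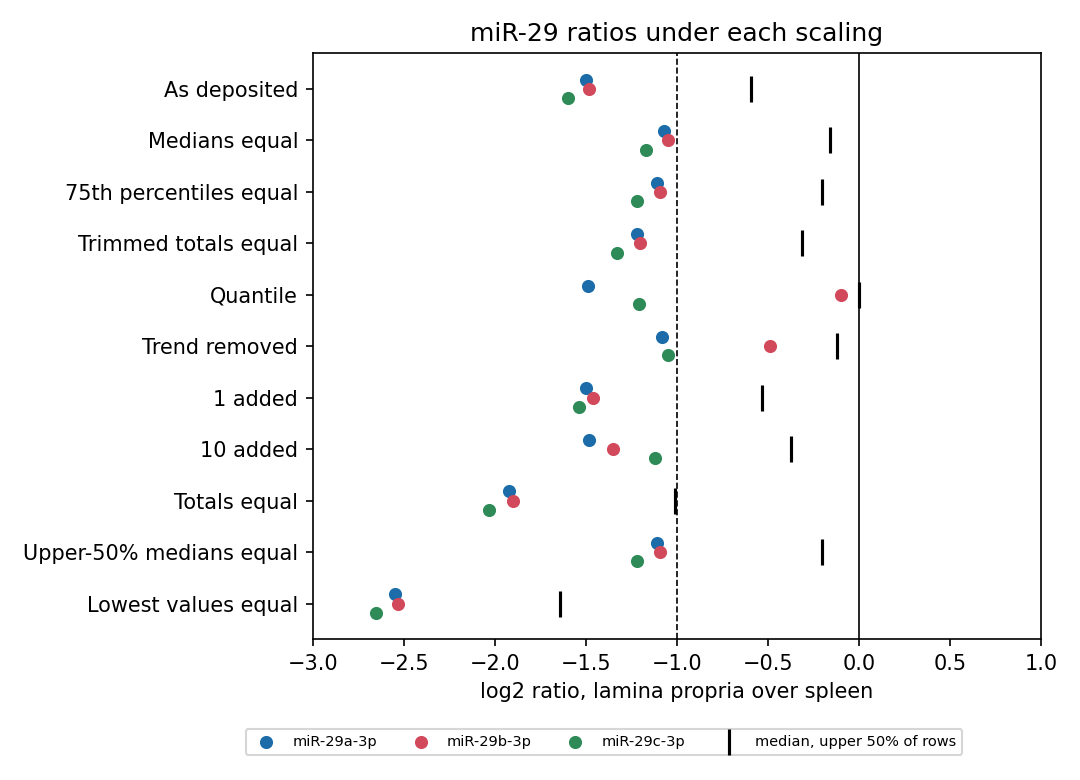
Log2 ratio of lamina propria over spleen for the 3 family members (points) and the median of the upper 50% of rows (black ticks) as deposited and under 10 other settings; the dashed line marks 2-fold lower. All points lie below 0, and only miR-29b-3p crosses the dashed line, at -0.10 after quantile normalization and -0.49 with the trend taken out.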

How the data were processed

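RNA of CD4+ T cells isolated on magnetic beads was labelled with Hy5, per the labels' protocols, and hybridised to 1 array for lamina propria and 1 for spleen. The authors deposited linear intensity values, 1 column per array, with blanks where no value is given; for their background subtraction, detection rule and scaling the labels give nothing. Of 739 rows, 378 had a value in lamina propria and 516 in spleen. The table names rows by accession and no table used here pairs accessions with names; the 3 members were named by their accessions, and the planned lists of passenger arms, other T cell miRNAs and cell type markers could not be applied. The CD4+ T cell label was therefore not checked against markers. Members and lists were chosen with earlier results of these data known. The rule for named rows was the 3 members plus the 5 rows of the upper 50% nearest to their median log2 ratio, of which 2 are printed. A member was counted when at least 2-fold lower or higher. Alternatives covered scaling, a lowess trend (fraction 0.5), 1 or 10 added, other folds and other filters. With 1 array a tissue, precision is limited by that number. Ratios were computed in pandas 2.3.3 and numpy 2.4.6 (Python 3.11.15), and the trend in statsmodels 0.14.6. The code was run on simulated data with a single factor between arrays and no trend with level. A pass was required there only of the unscaled ratios and of equal medians, not of quantile normalization or trend removal. Sequences and coordinates are from RefSeq (GRCm38.p6).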

Additional observations from a re-analysis of the deposited data

How the results depend on the processing

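As deposited, the log2 ratios of miR-29a-3p, miR-29b-3p and miR-29c-3p were -1.50, -1.48 and -1.60, with a median of -1.50 and a range of 0.13. Below, values stand in the order 29a, 29b, 29c. With medians of shared rows set equal they were -1.07, -1.05 and -1.17 (median -1.07). With 75th percentiles set equal they were -1.11, -1.09 and -1.22 (median -1.11). With totals over shared rows set equal without the 10 brightest rows of each array they were -1.22, -1.20 and -1.33 (median -1.22). After quantile normalization they were -1.49, -0.10 and -1.21 (median -1.21, range 1.40). After removal of the trend with level they were -1.08, -0.49 and -1.05 (median -1.05, range 0.59). With 1 added to both values they were -1.50, -1.46 and -1.54 (median -1.50, range 0.07), and with 10 added -1.48, -1.35 and -1.12 (median -1.35, range 0.36). The next 3 settings were chosen after seeing the data. With the total signal of all listed rows set equal the ratios were -1.92, -1.90 and -2.03 (median -1.92). With medians of the upper 50% set equal they were -1.11, -1.09 and -1.22 (median -1.11). With the lowest listed values set equal they were -2.55, -2.53 and -2.65 (median -2.55).

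The sign was kept in all 10 of these settings for all 3 members. Members at least 2-fold lower numbered 3 in 8 of the 10 and 2 after quantile normalization and trend removal, both times without miR-29b-3p. Of the 177 rows, between 33.9% and 62.1% were that low in those 8 settings. The share was 28.2% after quantile normalization and 24.9% after trend removal. As deposited, the count was 3 at 1.5-fold, against 50.3% of the 177 rows, and 0 at 4-fold, against 14.7%. In any setting 0 members were higher, where between 4.52% and 24.9% of the 177 rows were. On the deposited scale, the share of all rows at least 2-fold lower was 41.2% in the upper 50%, 25.8% over all shared rows and 51.7% in the upper 25%. Single factors add 1 constant to every log2 ratio, an added constant shrinks dim rows most, and a 4-fold threshold is stricter by construction; for the remaining changes the cause was not tested. No paired analysis was possible because there was 1 array per tissue, which also left no replicate to omit. Signal over background is not known for these arrays, which limits miR-29c-3p most.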
